A study of Homo sapiens with 4 samples.

Results

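The genes described here encode the SR and hnRNP splicing regulators, their CLK kinases, the SR-like proteins TRA2A and TRA2B, and the cold-inducible RNA-binding proteins RBM3 and CIRBP. They were taken by symbol from the protein-coding genes of the table (every SRSF gene with a number, every HNRNP gene, CLK1 to CLK4, TRA2A, TRA2B, RBM3 and CIRBP), which gave 47 of 19945 protein-coding genes among 58884 gene IDs. Their RNA was measured in 4 libraries, 1 each of TPC-1 at 40 °C, TPC-1 at 37 °C, B-CPAP at 40 °C and B-CPAP at 37 °C. TPC-1 and B-CPAP are established human thyroid cancer lines, and flasks of both were submerged at the set temperature. The labels give the exposure as 15 min, 20 min and 24 h in different places, so its length is not known. No group has a second library, and the labels name no separate cultures. Differences between temperatures within a line therefore carry no p-value. The estimated depth was 20706705 to 24468588 reads per library. The thyroid transcription factor genes PAX8 (98.9 to 284 TPM) and FOXE1 (5.95 to 9.70 TPM) were present in every library, whereas NKX2-1 stood at 7.90 and 8.60 TPM in B-CPAP and was listed at 0 in TPC-1. SLC5A5 was listed at 0 in every library, TG reached at most 0.746 TPM and TSHR at most 0.0135 TPM, so these markers of differentiated thyroid function were absent or nearly so. The leukocyte genes PTPRC and CD3E were listed at 0 throughout. Mitochondrially encoded genes took 19.9% of TPM at 40 °C against 16.8% at 37 °C in TPC-1, and 23.9% against 22.0% in B-CPAP. With TPM rescaled without these genes, the median log2 difference of the 41 genes described below was 0.13 in TPC-1, where it is 0.08 on values as deposited, and 0.34 in B-CPAP, where it is 0.29.

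SR proteins bind exons through RNA recognition motifs and recruit the spliceosome through arginine and serine-rich tails, and hnRNPs often oppose them. CLK kinases phosphorylate those tails, and in cultured cells their activity is known to fall as the temperature rises within the physiological range. RBM3 and CIRBP are known to be induced by mild cold and lowered by warmth. Many genes of these families limit their own level through alternative exons or retained introns that send the RNA to nonsense-mediated decay or hold it in the nucleus. The values here are totals per gene and do not separate such forms.

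Of the 47 genes, 41 had a mean of at least 1 TPM over the 4 libraries and were tested. TPM is scaled by gene length and library total, so levels of different genes can be set side by side, though only roughly. The length is that of all annotated exons merged, which can exceed that of the expressed RNA and then lowers TPM. The 6 others were the HNRNPC-like genes HNRNPCL1, HNRNPCL2, HNRNPCL3 and HNRNPCL4, listed at 0 in all libraries, the readthrough HNRNPUL2-BSCL2 (at most 0.165 TPM), and SRSF12. SRSF12, which encodes a small SR protein, stood at 1.11 TPM at 40 °C against 0.947 at 37 °C in TPC-1, and at 0.378 against 0.0295 TPM in B-CPAP. The hnRNP genes summed to 4763 TPM at 40 °C against 4629.8 at 37 °C in TPC-1, and to 4192 and 3553 TPM in B-CPAP. The SR genes summed to 615 and 543 TPM in TPC-1, and to 908 and 753 TPM in B-CPAP, in the same order of temperatures. Both sums were thus higher at 40 °C in each line on values as deposited, with the larger gap in B-CPAP. They were not taken under other scalings and rest most on the highest genes. In TPC-1 HNRNPA1 alone made up 21.1% of the hnRNP sum at 40 °C and 19.3% at 37 °C. In bulk RNA, more cells expressing a gene and more RNA per cell cannot be told apart.

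**Figure D1:**
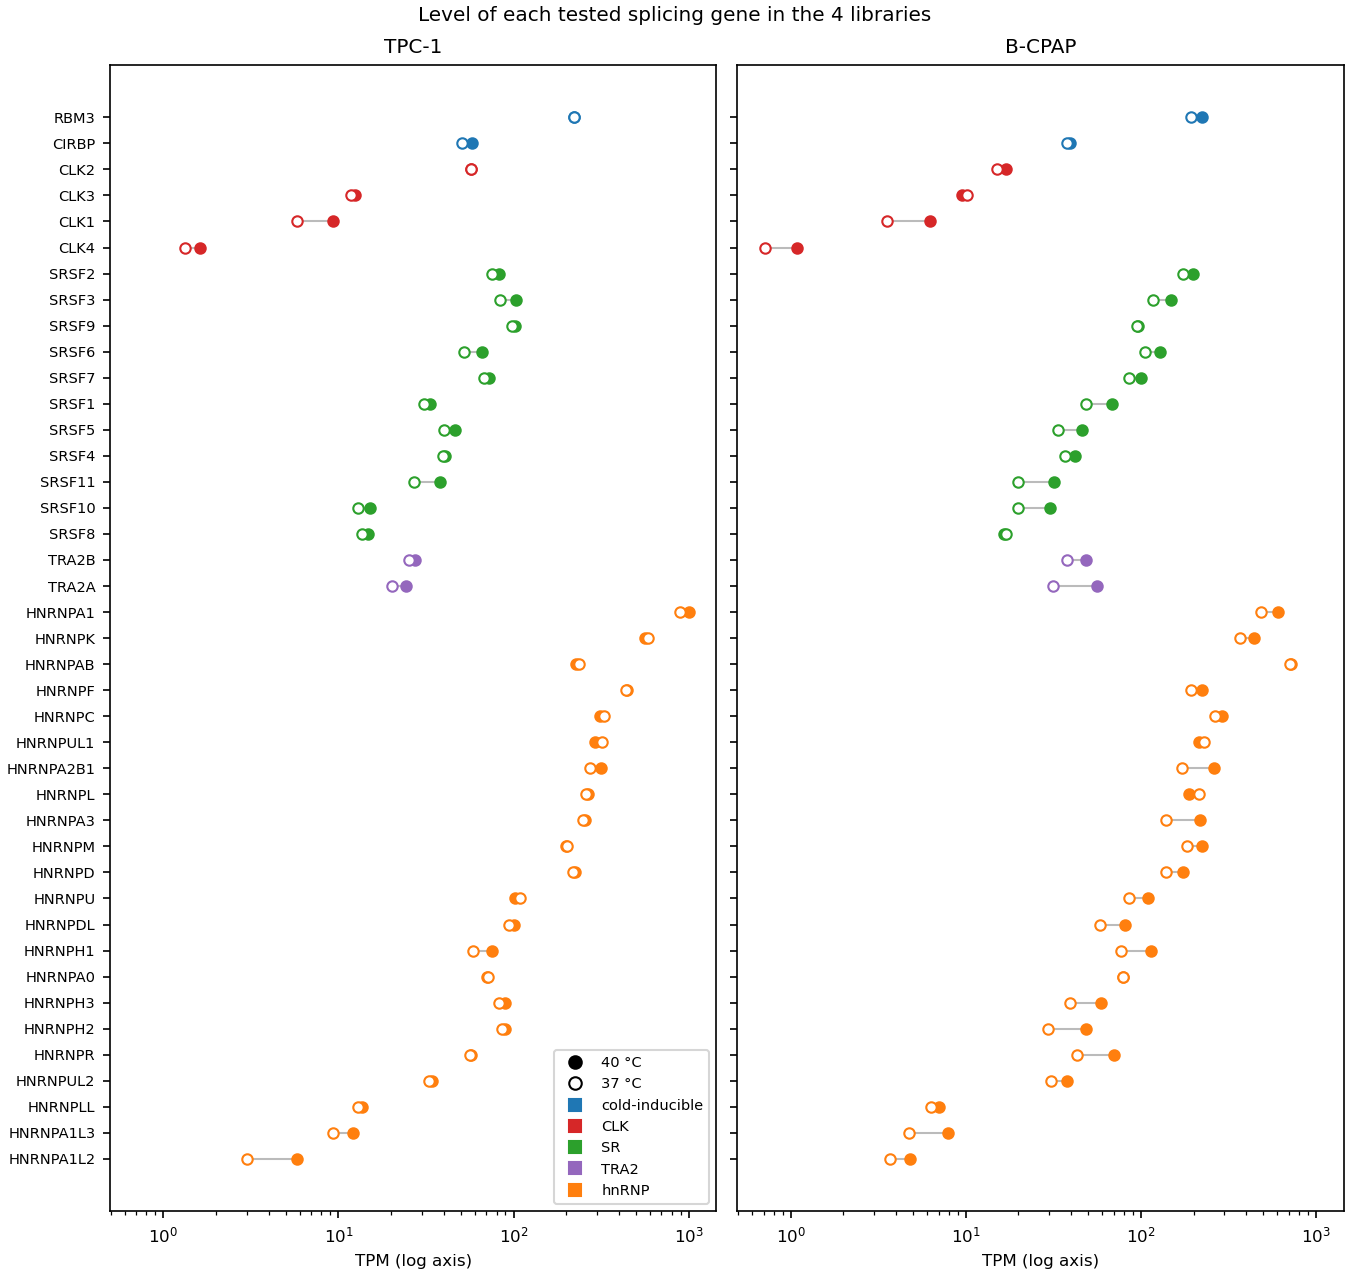
Levels of the 41 tested genes in TPM on a log axis, in TPC-1 (left) and B-CPAP (right); filled points are the 40 °C library and open points the 37 °C library of that line, 1 library each, coloured by family. Levels span from CLK4 (0.710 to 1.62 TPM) to HNRNPA1 (484 to 1003 TPM), and most filled points lie at or to the right of the open ones.

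At 40 °C most of these genes stood higher, those below 42% GC by less than other genes of that class and the others by more than theirs. Among the 21 with a GC content below 42% the median log2 difference was 0.10 in TPC-1, against 0.19 for other tested protein-coding genes of that class, and 0.35 in B-CPAP, against 0.49. Among the 11 from 42 to 50% it was 0.13 against 0.06 for the others in TPC-1, and 0.33 against 0.22 in B-CPAP. Among the 9 above 50% it was 0.03 against -0.10 for the others in TPC-1, and 0.05 against -0.20 in B-CPAP. In TPC-1, 33 of 41 were higher at 40 °C, with a median log2 difference of 0.08, where 53.2% of 11819 tested protein-coding genes and 54.3% of all tested genes were higher, with a median of 0.02 for the protein-coding ones. In B-CPAP, 36 of 41 were higher with a median of 0.29, against 58.6% (58.2% of all tested genes) and a median of 0.10. In both lines 30 of 41 were higher, against 43.3%. With libraries centred on the median of all tested genes, 19 of 41 were higher in TPC-1, with a median difference of -0.02, against -0.07 for all tested genes. With TPM rescaled without mitochondrially encoded genes 37 of 41 were higher in TPC-1, with a median of 0.13, against 0.07 for all tested genes. Differences are of log2(TPM + 1), 40 °C minus 37 °C, a scale that understates changes of low genes. In TPC-1, 17 ratios had a 95% counting interval above 1, 4 below 1 and 20 that included 1, and in B-CPAP 30, 2 and 9. The shares over all tested genes were not counted. The 41 genes had a median level of 74.9 TPM, against 17.8 for tested protein-coding genes, and higher levels give narrower intervals. These exact intervals compare 2 libraries and cover counting error only.

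At 1.5-fold or more on the log2(TPM + 1) scale, 2 of 41 were higher in TPC-1, where 1.51% of tested protein-coding genes were (5.40% of all tested genes), and 0 of 41 were lower, against 0.406% (2.49% of all). In B-CPAP 9 of 41 were higher, against 11.0% (12.6% of all), and 0 were lower, against 0.855% (2.97% of all). Adjusted for GC content, 0 of 41 in B-CPAP and 1 in TPC-1 were higher by that much. The 2 in TPC-1 were HNRNPA1L2 and CLK1, and the 9 in B-CPAP were TRA2A, HNRNPH2, CLK1, HNRNPR, SRSF11, HNRNPA3, HNRNPA1L3, HNRNPA2B1 and SRSF10. Over both lines, with the line as a block, limma called 0 of the 41 genes at an adjusted p of 0.05, where it called 0.00% of 14912 genes. An unadjusted p under 0.05 was found for 12 of 41 genes, against 19.5% of all. The fit has 1 residual degree of freedom, and its spread is how far the temperature difference differs between the lines. Fitted on protein-coding genes alone, limma called 9 of the 41, all higher at 40 °C, where 7.44% of 11824 genes were called higher. They were HNRNPH1, HNRNPA2B1, SRSF11, TRA2A, CLK1, SRSF3, HNRNPA1, HNRNPA3 and SRSF6, at adjusted p from 0.00904 to 0.0418. On genes with a mean of at least 5 TPM it called 6 of 39, where 5.02% were called higher. With values adjusted for GC content, limma on protein-coding genes alone called 0 of the 41, where it called 0 of 11819 genes. The smallest adjusted p of the 41 was 0.224, and the unadjusted p was under 0.05 for 9, against 1521 of the 11819.

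In both lines a gene's difference between temperatures ran with the GC content of its exons. Across 11778 other tested protein-coding genes Spearman's rho of difference on GC content reached -0.59 (TPC-1) and -0.81 (B-CPAP), and across the 41 genes -0.15 and -0.56. Genes within a library are not independent replicates, and all share the 4 libraries. The 41 genes had a median GC content of 41.8%, from 35.3% in HNRNPR to 61.4% in CIRBP, against 48.2% for all tested protein-coding genes. For each gene the median difference of the 500 tested protein-coding genes nearest to it in GC content was taken as its yardstick. Relative to that yardstick the median of the 41 was 0.0016 in TPC-1, with 21 genes above 0 where 50.1% of all were, and 0.0546 in B-CPAP, with 24 above 0 against 50.1%. With like-GC genes matched also on expression it was 0.0337 and 0.0832. Above the 90th percentile of their like-GC genes stood 6 of 41 in TPC-1, where 10.3% of all did, and 8 of 41 in B-CPAP, against 10.3%. Below the 10th percentile stood 3 of 41 in TPC-1 against 10.2%, and 4 of 41 in B-CPAP against 10.1%. In both lines at once, CIRBP, HNRNPH1 and HNRNPA1L3 stood above the 90th percentile, where 2.13% of genes did, and HNRNPC below the 10th, where 2.21% did. HNRNPA1L3 in TPC-1 sat on the threshold (0.342527 against 0.342483), on 135 and 109 reads.

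**Figure D2:**
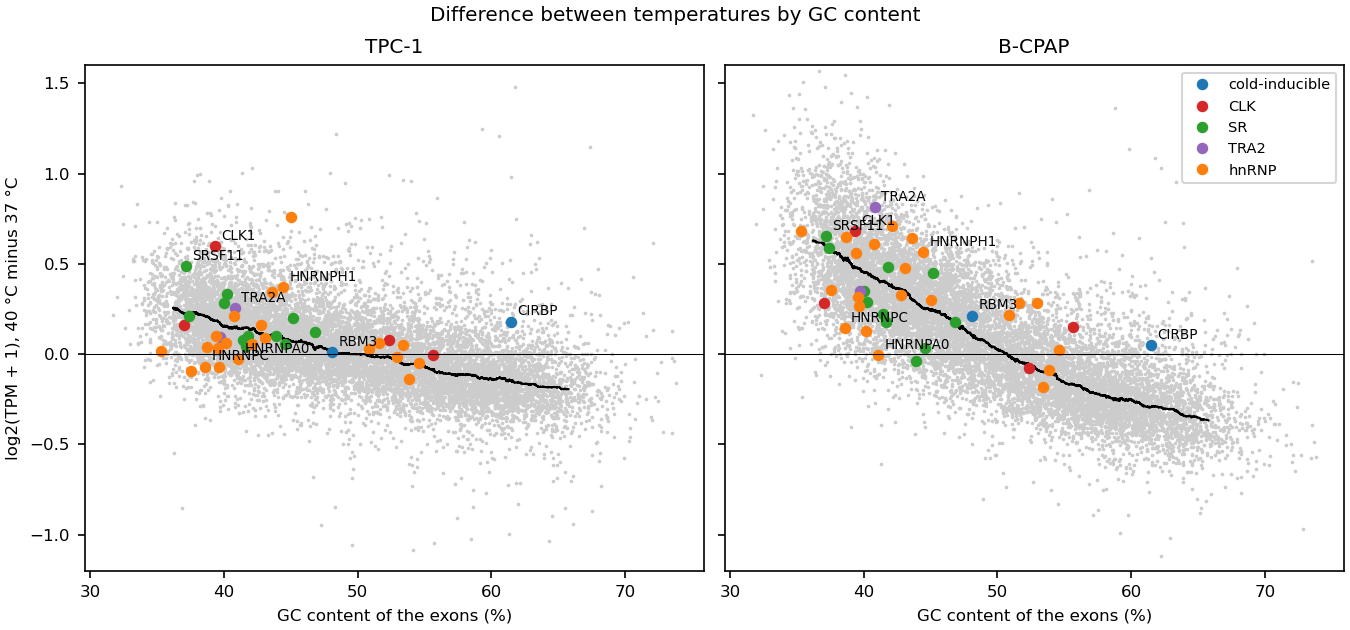
Difference between 40 °C and 37 °C in log2(TPM + 1) against exon GC content in percent, for TPC-1 (left) and B-CPAP (right); grey points are 11778 other tested protein-coding genes (a few lie outside the plotted range), the black line is their running median and coloured points are the 41 genes. The downward trend has a rho of -0.59 (TPC-1) and -0.81 (B-CPAP). CIRBP, at 61.4% GC, lies above the line in both.

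The cold-inducible genes stood level or higher at 40 °C, although the sign of the difference flipped between scalings for CIRBP in B-CPAP and for RBM3 in TPC-1. CIRBP, which encodes a glycine-rich RNA-binding protein induced by mild cold (ENSG00000099622, GRCh38 chr19:1259384-1274880, plus strand), stood at 58.1 TPM at 40 °C against 51.1 at 37 °C in TPC-1, and at 39.4 against 38.0 TPM in B-CPAP. The 40 °C library was the higher one in each line, by a TPM ratio of 1.14, interval 1.07 to 1.21, in TPC-1 and of 1.04, interval 0.970 to 1.11, in B-CPAP, the last of which included 1. Its like-GC genes stood lower at 40 °C, with medians of -0.14 and -0.29. CIRBP lay above them by 0.32 (TPC-1) and 0.34 (B-CPAP), and exceeded 94.4% of them in TPC-1 and 93.6% in B-CPAP. On GC-adjusted values limma gave it an unadjusted p of 0.00585 and an adjusted p of 0.474, against an adjusted p of 0.520 on values as deposited. In B-CPAP its difference ran from -0.14 to 0.08 over the scalings tried. GENCODE lists 46 transcripts of CIRBP, 13 of them of the nonsense-mediated decay class, and the gene total does not tell them apart.

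RBM3, the other cold-inducible gene, which encodes a short protein with a single RNA recognition motif (ENSG00000102317, GRCh38 chrX:48574449-48579066, plus strand), stood at 222 TPM at 40 °C against 220.2 at 37 °C in TPC-1, and at 224 against 193 TPM in B-CPAP. The TPC-1 libraries did not differ beyond counting error (ratio 1.01, interval 0.969 to 1.05), and in B-CPAP the 40 °C library was higher (ratio 1.16, interval 1.12 to 1.2). RBM3 lay on the median of its like-GC genes in TPC-1 and 0.11 above it in B-CPAP, exceeding 66.4% of them there. RBM3 stood at several times the TPM of CIRBP in every library, on a merged exon length of 3731 bases against 6368 for CIRBP.

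The promoters of both genes are shown because cold and heat response motifs have been described in this class of gene. The letters searched, on both strands, were the inverted repeats GAANNTTC and TTCNNGAA at the core of heat shock elements, and TCCCCGCC, a mild cold responsive element reported upstream of mouse Cirbp. RefSeq promoters (GRCh38.p14, 300 bases around the gene's start) were found for 41 of the 47 genes. In lower case, with matches in capitals, RBM3 (chrX:48574234-48574533, plus strand) and CIRBP (chr19:1269082-1269381, plus strand) read:
RBM3: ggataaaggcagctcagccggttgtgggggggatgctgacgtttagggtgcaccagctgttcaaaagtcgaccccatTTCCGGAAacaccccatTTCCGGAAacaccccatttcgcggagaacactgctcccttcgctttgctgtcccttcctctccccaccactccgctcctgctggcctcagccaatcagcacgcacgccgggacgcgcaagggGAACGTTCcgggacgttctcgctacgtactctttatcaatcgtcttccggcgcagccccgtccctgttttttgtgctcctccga
CIRBP: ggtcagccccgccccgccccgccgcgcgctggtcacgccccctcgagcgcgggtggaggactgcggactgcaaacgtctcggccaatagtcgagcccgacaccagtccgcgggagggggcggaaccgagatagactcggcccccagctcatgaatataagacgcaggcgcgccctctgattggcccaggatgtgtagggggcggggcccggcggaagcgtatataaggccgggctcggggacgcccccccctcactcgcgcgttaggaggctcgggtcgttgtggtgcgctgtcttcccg
RBM3 held 3 matches to the heat shock letters, 2 of TTCNNGAA and 1 of GAANNTTC, and CIRBP held no match to any of the 3 motifs in this window. Among the 41 promoters, GAANNTTC was found in 4 (9.76%), against 5.56% of 15843 protein-coding promoters. TTCNNGAA was found in 2 (4.88%, against 6.6%), RBM3 and HNRNPA2B1, and TCCCCGCC in 7 (17.1%, against 11.4%). A match is a run of letters and shows no binding.

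Of the CLK kinases, CLK1 had the highest ratio in both lines, with an interval that overlapped that of CLK4 in each. CLK1, which phosphorylates SR proteins (ENSG00000013441, GRCh38 chr2:200853009-200864744, minus strand), stood at 9.27 TPM at 40 °C against 5.79 at 37 °C in TPC-1, and at 6.25 against 3.53 TPM in B-CPAP. The TPM ratio was 1.6, interval 1.32 to 1.94, in TPC-1 and 1.77, interval 1.43 to 2.21, in B-CPAP, so each 40 °C library lay above the 37 °C library of its line by more than counting error. CLK1 lay 0.41 above its like-GC genes in TPC-1, exceeding 97.2% of them, and 0.20 above them in B-CPAP, exceeding 78.0%. CLK4, its closest relative, stood at 1.62 TPM at 40 °C against 1.34 at 37 °C in TPC-1, and at 1.08 against 0.710 TPM in B-CPAP, with ratios of 1.21, interval 0.854 to 1.72, and 1.52, interval 1.01 to 2.32. Its libraries held 42 to 74 reads each, and relative to its like-GC genes it lay at -0.06 (TPC-1) and -0.31 (B-CPAP). With matching on expression it lay at 0.02 (TPC-1) and -0.11 (B-CPAP).

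CLK2, the CLK gene with the highest TPM, stood at 56.9 TPM at 40 °C against 57.0 at 37 °C in TPC-1, and at 16.9 against 15.1 TPM in B-CPAP. Its TPC-1 libraries were alike within counting error (ratio 0.998, interval 0.921 to 1.08), as were those of B-CPAP (ratio 1.12, interval 0.975 to 1.28), where its like-GC genes were lower at 40 °C and CLK2 lay 0.32 above them. CLK3 stood at 12.5 TPM at 40 °C against 11.8 at 37 °C in TPC-1, and at 9.57 against 10.2 TPM in B-CPAP, and both intervals included 1. The TPM of CLK3 rests on a merged exon length of 20443 bases, the longest but HNRNPU of these genes, and a longer length gives a lower TPM.

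The opening of each CLK coding sequence shows how far the 4 kinases differ in composition, G and C in capitals. The stretches are the 90 bases from the start codon (GENCODE 29, GRCh38):
CLK1: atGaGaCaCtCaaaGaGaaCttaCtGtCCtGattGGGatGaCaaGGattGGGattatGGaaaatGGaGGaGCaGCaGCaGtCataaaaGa
CLK4: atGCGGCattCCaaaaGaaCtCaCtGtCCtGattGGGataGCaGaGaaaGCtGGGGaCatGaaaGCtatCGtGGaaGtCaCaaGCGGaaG
CLK3: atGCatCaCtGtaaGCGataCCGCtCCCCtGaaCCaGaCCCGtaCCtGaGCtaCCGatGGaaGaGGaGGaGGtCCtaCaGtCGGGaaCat
CLK2: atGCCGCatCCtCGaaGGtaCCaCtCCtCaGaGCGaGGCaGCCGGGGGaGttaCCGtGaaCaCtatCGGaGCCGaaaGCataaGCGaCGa
They lie at chr2:200861773-200861862 (minus strand), chr5:178623327-178623416 (minus strand), chr15:74619197-74619286 (plus strand) and chr1:155270888-155270977 (minus strand), each within 1 coding exon. Over the whole coding sequence GC content was 40.0% in CLK1 and 40.8% in CLK4, and 55.7% in CLK3 and 53.3% in CLK2. At the third codon position it was 35.1% and 36.9%, and 70.5% and 61.7%. The AT-rich pair had the higher ratios in both lines, although the interval of CLK4 included 1 in TPC-1. CLK1 and CLK4, alike in composition, lay on opposite sides of their like-GC genes on the log2(TPM + 1) scale. That scale understates changes of low genes such as CLK4. With matching on expression CLK4 lay at 0.02 in TPC-1, on the same side as CLK1, and at -0.11 in B-CPAP.

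The SR genes stood higher at 40 °C almost throughout, in TPC-1 11 of 11 and in B-CPAP 10 of 11, the exception being SRSF8. Of tested protein-coding genes 53.2% (TPC-1) and 58.6% (B-CPAP) were higher. Over 4 scalings, for which the share of all tested genes was not counted, 8 of 11 and 7 of 11 were always higher. SRSF4 and SRSF9 flipped in both lines, SRSF7 in TPC-1 and SRSF2 in B-CPAP. Relative to like-GC genes their median was 0.0016 in TPC-1, with 6 of 11 above, and -0.10 in B-CPAP, with 5 of 11 above. SRSF11, an SR-like splicing activator (ENSG00000116754, GRCh38 chr1:70205682-70253052, plus strand), stood at 38.2 TPM at 40 °C against 27.0 at 37 °C in TPC-1, and at 31.8 against 19.9 TPM in B-CPAP. Its ratios were 1.42, interval 1.32 to 1.52, and 1.6, interval 1.49 to 1.72, the largest of the 11 tested SR genes in both lines. Of its like-GC genes it exceeded 91.4% in TPC-1 and 58.2% in B-CPAP.

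SRSF3, the smallest SR protein (ENSG00000112081, GRCh38 chr6:36594353-36605600, plus strand), stood at 103 TPM at 40 °C against 84.1 at 37 °C in TPC-1, and at 149 against 117 TPM in B-CPAP. SRSF6 stood at 66.4 TPM at 40 °C against 52.5 at 37 °C in TPC-1, and at 129 against 106 TPM in B-CPAP. Both were higher at 40 °C in each line by more than counting error, with ratios of 1.22 and 1.28 for SRSF3 and 1.27 and 1.22 for SRSF6, and both lay above like-GC genes in TPC-1 and below them in B-CPAP. SRSF5 stood at 46.2 TPM at 40 °C against 40.1 at 37 °C in TPC-1, and at 46.0 against 33.5 TPM in B-CPAP, above like-GC genes by 0.13 (TPC-1) and 0.20 (B-CPAP).

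SRSF2, which promotes exon inclusion (ENSG00000161547, GRCh38 chr17:76734115-76737374, minus strand), stood at 82.4 TPM at 40 °C against 75.5 at 37 °C in TPC-1, and at 198 against 175 TPM in B-CPAP, with ratios of 1.09 and 1.13. SRSF1, the founding member of the family, had ratios of 1.08, interval 0.963 to 1.2, and 1.4, interval 1.3 to 1.51. SRSF10, which acts as a repressor when dephosphorylated after heat shock, stood at 15.1 TPM at 40 °C against 12.9 at 37 °C in TPC-1, and at 30.4 against 19.9 TPM in B-CPAP, at ratios of 1.17 and 1.53 and, relative to its like-GC genes, at -0.02 (TPC-1) and 0.0012 (B-CPAP).

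SRSF8, another SR gene, stood at 14.8 TPM at 40 °C against 13.7 at 37 °C in TPC-1, and at 16.6 against 17.1 TPM in B-CPAP, and in B-CPAP exceeded 5.0% of like-GC genes. SRSF9 had ratios of 1.04 and 1.02, with intervals that included 1. SRSF4 had 1.03 and 1.13, and SRSF7 1.06 and 1.17. For both the interval excluded 1 in B-CPAP and not in TPC-1. The 11 SR genes also share annotated transcripts for nonsense-mediated decay, found in 11 of 11, against 42.7% of tested protein-coding genes. Among all 41 genes it was found in 30 (73.2%). Such annotation says nothing of how much of each form these libraries held.

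TRA2A and TRA2B, SR-like proteins that bind purine-rich exonic enhancers, both stood higher at 40 °C, TRA2A by the widest margin of the 41 genes in B-CPAP. TRA2A (ENSG00000164548, GRCh38 chr7:23504780-23532041, minus strand) stood at 24.2 TPM at 40 °C against 20.1 at 37 °C in TPC-1, and at 55.9 against 31.4 TPM in B-CPAP. Its ratio was 1.2, interval 1.05 to 1.37, in TPC-1 and 1.78, interval 1.63 to 1.95, in B-CPAP, where it lay 0.39 above like-GC genes and exceeded 93.6% of them. TRA2B stood at 27.2 TPM at 40 °C against 25.4 at 37 °C in TPC-1, and at 48.8 against 38.0 TPM in B-CPAP. Its ratios were 1.07 and 1.28, and relative to like-GC genes it lay at -0.07 (TPC-1) and -0.12 (B-CPAP).

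**Figure D3:**
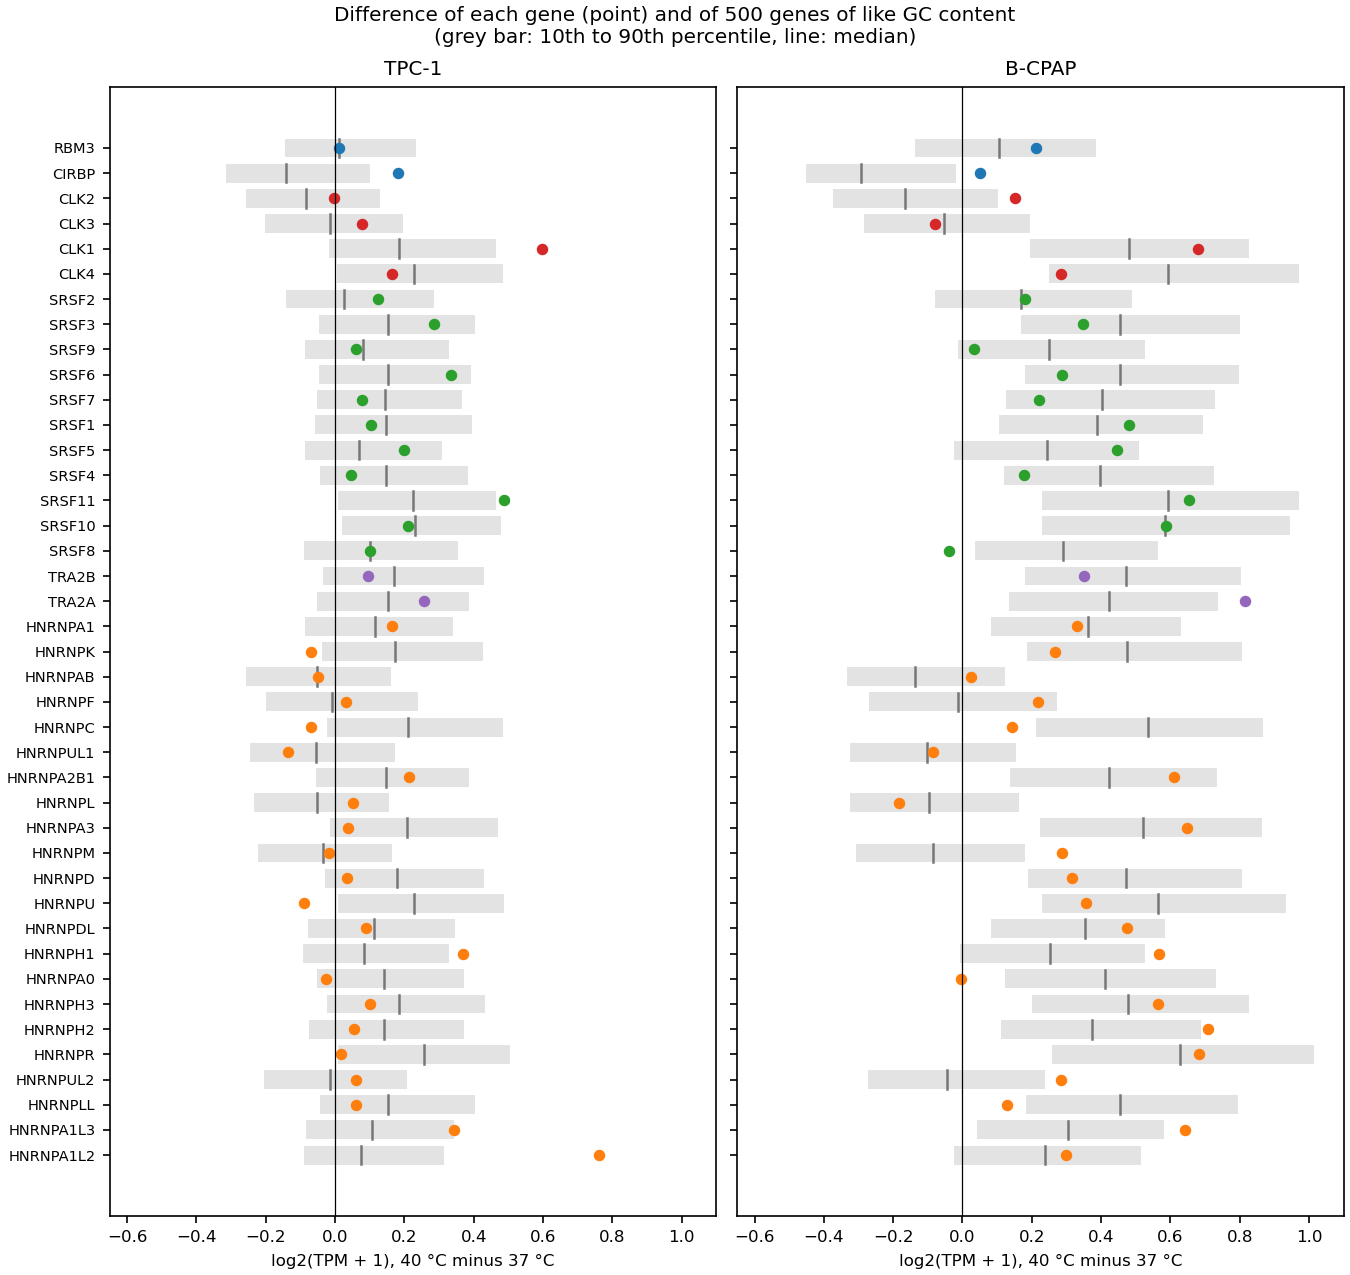
Difference between 40 °C and 37 °C in log2(TPM + 1) for each of the 41 genes (coloured points, 1 library per temperature) in TPC-1 (left) and B-CPAP (right), with the median (line) and the 10th to 90th percentile (grey bar) of its 500 like-GC genes. CIRBP and HNRNPH1 lie right of the bar in both lines, and HNRNPC lies left of it in both.

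The hnRNP genes split, 15 of 22 being higher at 40 °C in TPC-1 and 19 of 22 in B-CPAP, against 53.2% and 58.6% of tested protein-coding genes. Their signs flipped between scalings for 13 and 4, with no share over all tested genes counted. Relative to like-GC genes their median was -0.05 in TPC-1, with 10 of 22 above, and 0.07 in B-CPAP, with 14 of 22 above. HNRNPH1, which binds G-rich tracts (ENSG00000169045, GRCh38 chr5:179614178-179634784, minus strand), stood at 75.8 TPM at 40 °C against 58.4 at 37 °C in TPC-1, and at 114 against 76.9 TPM in B-CPAP. Its ratios were 1.3, interval 1.24 to 1.36, and 1.49, interval 1.44 to 1.54, and it lay above like-GC genes by 0.29 (TPC-1) and 0.31 (B-CPAP), exceeding 92.4% of them in TPC-1 and 92.6% in B-CPAP. With 50 annotated transcripts, 4 of them for nonsense-mediated decay and 16 with retained introns, it is the most heavily annotated of these genes.

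HNRNPC, which binds uridine tracts and masks cryptic exons (ENSG00000092199, GRCh38 chr14:21209136-21269494, minus strand), lay lowest against its like-GC genes on the mean of both lines. It stood at 314 TPM at 40 °C against 329 at 37 °C in TPC-1, and at 292 against 265 TPM in B-CPAP. The ratio was 0.953, interval 0.931 to 0.976, in TPC-1 and 1.1, interval 1.08 to 1.13, in B-CPAP, with signs that flipped between scalings. Relative to like-GC genes it lay at -0.28 (TPC-1) and -0.39 (B-CPAP), and with matching on expression at -0.16 and -0.21. On GC-adjusted values limma gave an unadjusted p of 0.00274 and an adjusted p of 0.474, against an adjusted p of 0.812 on values as deposited. HNRNPA0, whose gene has 1 annotated transcript, stood at 70.4 TPM at 40 °C against 71.7 at 37 °C in TPC-1, and at 78.6 against 78.9 TPM in B-CPAP. It was level between temperatures in each line, while its like-GC genes were higher at 40 °C, by medians of 0.14 and 0.41.

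HNRNPA1, which represses splice sites and was the highest hnRNP gene in TPC-1, stood at 1003 TPM at 40 °C against 896 at 37 °C in TPC-1, and at 609 against 484 TPM in B-CPAP. Its ratios of 1.12 and 1.26 lay at 0.05 (TPC-1) and -0.03 (B-CPAP) relative to like-GC genes on the log2 scale. Its close relative HNRNPA2B1 stood at 316 TPM at 40 °C against 272 at 37 °C in TPC-1, and at 262 against 171 TPM in B-CPAP, at ratios of 1.16 and 1.53. HNRNPA3 had ratios of 1.03 and 1.57. The HNRNPA1-like gene HNRNPA1L2 had ratios of 1.93, interval 1.16 to 3.27, and 1.29, interval 0.822 to 2.04. HNRNPA1L3, another such gene, had 1.3, interval 0.9997 to 1.68, which included 1, and 1.68, interval 1.23 to 2.31. HNRNPA1L2 rested on 25 to 46 reads per library. Both are uncertain because they are close copies of HNRNPA1, whose 74 annotated pseudogenes summed to 16.2 to 34.6 TPM per library.

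HNRNPK, which binds cytosine-rich tracts, stood at 562 TPM at 40 °C against 589.9 at 37 °C in TPC-1, and at 446 against 371 TPM in B-CPAP. HNRNPU, a scaffold protein of the nucleus, stood at 102 TPM at 40 °C against 109 at 37 °C in TPC-1, and at 109.7 against 85.5 TPM in B-CPAP. Both were lower at 40 °C in TPC-1 and higher in B-CPAP, each beyond counting error, and no sign flipped between the scalings tried. HNRNPK lay relative to like-GC genes at -0.24 (TPC-1) and -0.21 (B-CPAP), and HNRNPU at -0.32 (TPC-1) and -0.21 (B-CPAP). With matching on expression these were -0.15 and -0.08 for HNRNPK, and -0.25 and -0.03 for HNRNPU. HNRNPD, which binds AU-rich elements, had ratios of 1.02 and 1.25, and its paralogue HNRNPDL 1.06 and 1.4.

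Of the GC-richer hnRNP genes HNRNPL, which regulates the CD45 exons in T cells, had ratios of 1.04 (TPC-1) and 0.880 (B-CPAP), and HNRNPUL1 was lower in both lines (0.910 and 0.943). In B-CPAP HNRNPM, HNRNPUL2 and HNRNPF, at ratios of 1.22, 1.22 and 1.16, lay above like-GC genes by 0.37, 0.33 and 0.23. In TPC-1 their ratios were 0.987, 1.04 and 1.02, with intervals that included 1. HNRNPAB, which had the highest TPM of the hnRNP genes in B-CPAP, was level (0.966 and 1.02).

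The remaining hnRNP genes had ratios near 1 in TPC-1, and all but HNRNPLL were higher at 40 °C in B-CPAP beyond counting error. HNRNPR had ratios of 1.01 and 1.62, HNRNPH2 1.04 and 1.66, HNRNPH3 1.07 and 1.49, and HNRNPLL 1.05 and 1.11. Over the 41 genes the difference between temperatures was larger in B-CPAP than in TPC-1 for 34, by a median of 0.19 on the log2 scale, as it was for 57.4% of tested protein-coding genes, by a median of 0.05. Measured from like-GC genes it was larger in B-CPAP for 22 of 41. With 1 library per group this difference between lines was not tested.

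Other splicing genes, listed by class, differed in GC content and in direction. The SR-related proteins, which carry arginine and serine-rich regions and have a median GC content of 39.2%, were higher at 40 °C for 17 of 21 in TPC-1 (median 0.18) and 19 of 21 in B-CPAP (median 0.50), where 53.2% and 58.6% of tested protein-coding genes were (medians 0.02 and 0.10). Relative to like-GC genes their medians were -0.02 and 0.15. LUC7L3, a U1-associated protein, stood at 8.36 TPM at 40 °C against 5.04 at 37 °C in TPC-1, and at 26.0 against 12.0 TPM in B-CPAP, exceeding 97.0% of its like-GC genes in TPC-1 and 96.6% in B-CPAP. PPIG, a nuclear cyclophilin, had ratios of 1.14 and 2.67, and SCAF11 of 1.19 and 2.08. The 31 core spliceosome genes, with a median GC content of 50.7%, were higher for 11 in TPC-1 (median -0.06) and 13 in B-CPAP (median -0.09), against the same 53.2% and 58.6%, and their medians relative to like-GC genes were -0.03 and -0.07. Among them were SNRPD1 at 1.41 and 1.42, SF3B6 at 1.38 and 1.35, and SNRPB2 at 1.29 and 1.43. Limma over both lines called 0 genes of these lists, with an unadjusted p under 0.05 for 10 of 21 SR-related and 12 of 31 core spliceosome genes, against 19.5% of all 14912.

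Of the 7 tested kinases of SR proteins and their relatives, 3 were higher in TPC-1 and 7 in B-CPAP (medians -0.0034 and 0.36), against 53.2% and 58.6% of tested protein-coding genes, as for the lists that follow. Relative to like-GC genes the medians of the 7 kinases were 0.04 (TPC-1) and 0.03 (B-CPAP), with 4 and 5 above 0. PRPF4B had ratios of 1.34 and 1.68, SRPK2 0.997 and 1.4, and SRPK1 1.15 and 1.21. Of the 12 tested hnRNP proteins under other symbols, 6 were higher in each line (medians 0.01 and 0.03), with TARDBP at 1.14 and 1.5, PTBP3 at 1.11 and 1.55, and PCBP4 at 0.861 and 0.728. Against like-GC genes the medians of these 12 were -0.07 (TPC-1) and -0.06 (B-CPAP). Of the 10 factors of nonsense-mediated decay 4 were higher in TPC-1 and 6 in B-CPAP (medians -0.04 and 0.09), with UPF2 at 1.1 and 1.94, SMG1 at 1.24 and 1.77, and UPF3A at 1.27 and 1.47. Against like-GC genes the medians of these 10 were 0.02 (TPC-1) and 0.07 (B-CPAP). Limma called 0 genes of these 3 lists over both lines, with an unadjusted p under 0.05 for 1 of 7, 6 of 12 and 2 of 10 genes, against 19.5% of all.

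Between the lines the families differed in direction, with SR and TRA2 genes mostly higher in B-CPAP and hnRNP genes mostly lower. With temperature as a block, limma called 27 of the 41 genes (10 higher, 17 lower), where it called 62.7% of 14912 genes (29.9% higher, 32.8% lower). Of the 11 SR genes 6 were higher and 1 lower in B-CPAP, of the TRA2 genes 2 were higher, and of the 22 hnRNP genes 2 were higher and 13 lower. This fit rests on 2 libraries per line that differ in temperature, and its spread is how far the gap between lines differs between temperatures. It called 3 of the 41 without the library of TPC-1 at 40 °C, 4 without TPC-1 at 37 °C, 12 without B-CPAP at 40 °C and 10 without B-CPAP at 37 °C. It called 17 without the temperature block, where it called 7469 of 14912 genes. With no filter on low values limma called 0 of 47, and 0 of 58884 genes. There 21 of the 47 had an unadjusted p under 0.05, against 9346 of the 58884.

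HNRNPAB, a transcriptional and mRNA-binding relative of HNRNPD (ENSG00000197451, GRCh38 chr5:178204507-178211163, plus strand), had the widest gap upward. It stood at 722 and 709 TPM in B-CPAP at 40 °C and 37 °C, against 228 and 236 TPM in TPC-1 (log2 difference 1.62 ± 0.06 (SE), limma adjusted p = 7.48e-05). Higher in B-CPAP were also SRSF2 at TPM ratios of 2.4 at 40 °C and 2.31 at 37 °C (log2 difference 1.23 ± 0.08 (SE), limma adjusted p = 0.00026), SRSF6 at 1.95 at 40 °C and 2.02 at 37 °C, SRSF1 at 2.06 at 40 °C and 1.58 at 37 °C and TRA2A at 2.31 at 40 °C and 1.56 at 37 °C. SRSF2 led the SR family of B-CPAP with 21.8% of its TPM at 40 °C and 23.2% at 37 °C, whereas SRSF3 and SRSF9 led in TPC-1.

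CLK2 had the widest gap downward, at 16.9 and 15.1 TPM in B-CPAP against 56.9 and 57.0 TPM in TPC-1 (log2 difference -1.77 ± 0.11 (SE), limma adjusted p = 0.000233). It made up 49.98% and 51.2% of the TPM of the 4 CLK genes in B-CPAP, and 70.9% and 75.1% in TPC-1. HNRNPH2 (log2 difference -1.19 ± 0.17 (SE), limma adjusted p = 0.00299) and HNRNPF (log2 difference -1.09 ± 0.08 (SE), limma adjusted p = 0.00035), which bind the same G-rich tracts as HNRNPH1, were lower in B-CPAP, at ratios of 0.543 at 40 °C and 0.341 at 37 °C and of 0.500 at 40 °C and 0.439 at 37 °C, while HNRNPH1 was higher (1.51 at 40 °C and 1.32 at 37 °C). CIRBP was lower in B-CPAP (0.679 at 40 °C and 0.744 at 37 °C; log2 difference -0.48 ± 0.10 (SE), limma adjusted p = 0.00989). RBM3 stood at ratios of 1.01 at 40 °C and 0.878 at 37 °C and was not called (log2 difference -0.09 ± 0.08 (SE), limma adjusted p = 0.401).

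**Figure D4:**
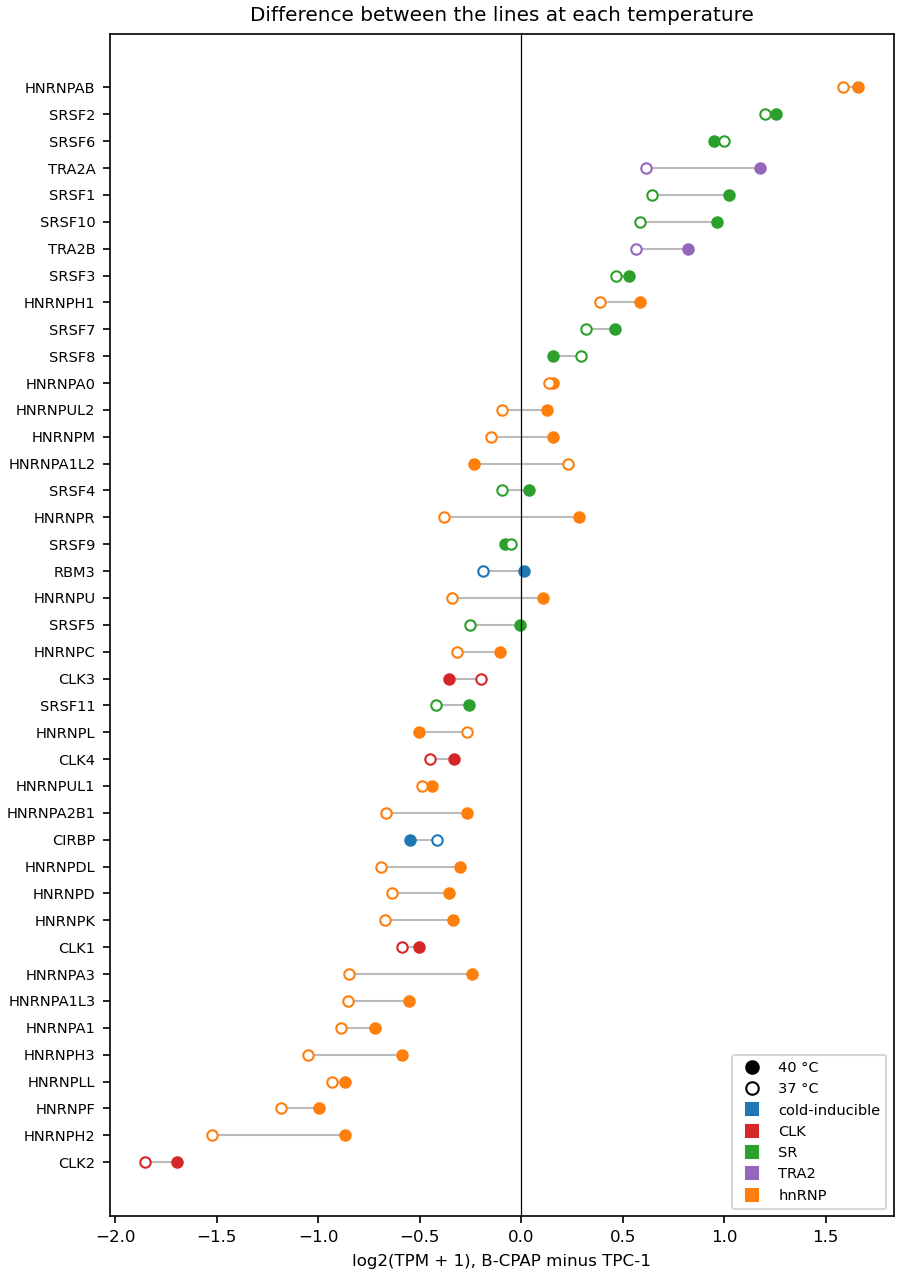
Difference in log2(TPM + 1) between B-CPAP and TPC-1 for each of the 41 genes, at 40 °C (filled) and 37 °C (open), ordered by the mean of both and coloured by family. HNRNPAB and SRSF2 lie furthest right and CLK2 furthest left, and most SR points lie right of 0 while most hnRNP points lie left.

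Some levels are uncertain because exons overlap those of other genes and the library kit keeps no strand. MFSD11, on the opposite strand, covers 36.7% of the exon bases of SRSF2, GATC covers 46.2% of those of SRSF9 and COX20 15.6% of those of HNRNPU. A readthrough gene covers 56.6% of SRSF1 exon bases, and HNRNPUL2-BSCL2 covers 44.1% of those of HNRNPUL2. The gene over SRSF1 stood at 0 to 0.126 TPM, COX20 at 0 to 0.434, MFSD11 at 5.67 to 9.20 and GATC at 24.3 to 41.2. HNRNPUL2-BSCL2 stood at 0 to 0.165 TPM and HNRNPUL2 at 30.8 to 37.7. Reads on the exons shared by that pair were thus not counted in full for both. The rule by which the authors' counting treated reads that fall on 2 genes is not given in the sources used here. Whether it lowers the levels of the overlapped genes was not tested.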

How the data were processed

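Per the labels' protocols, RNeasy Plus RNA went into the TruSeq RNA v2 kit, which does not mark strand. GRCh38, Trimmomatic 0.38, featureCounts 2.0.0, FastQC and MultiQC are named per the submitters' processing notes; for aligner and annotation release nothing is given in the sources used here. The authors deposited TPM, and each column sums to 1000000. Of 58884 IDs, 58611 were found in GENCODE 29 (GRCh38), which gave coordinates, merged exon lengths and GC content; symbols came from the name table. TPM keeps no depth, but TPM times exon length fell on whole reads (within 0.02 for 90.6 to 92.2% of values up to 20 reads, and for 66.0 to 67.8% between 20 and 200). These estimated reads gave depths and 95% intervals (exact, Clopper-Pearson) for the TPM ratio of 2 libraries, which cover counting error only.

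The 14912 genes averaging 1 TPM or more were tested on log2(TPM + 1) with limma 3.58.1 (R 4.3.3), with a trend on intensity, two-sided, adjusted by Benjamini-Hochberg over all of them. Temperature was fitted with the line as a block and line with temperature as a block, with 1 residual degree of freedom. As the labels name no separate cultures, p-values measure only the spread between these libraries. Like-GC genes were the 500 tested protein-coding genes nearest in exon GC content, members left out. The fits were tested on simulated data. By a fixed rule, genes given in full were CIRBP, RBM3, the CLK and TRA2 genes, and the SR and hnRNP genes with the widest like-GC differences, highest levels or widest gaps between lines; of the other lists, the 3 with the widest mean differences among genes averaging 5 TPM or more. The members and lists were chosen with earlier results of these data known. Alternatives were other pseudocounts (0.1 and 5), filters, scalings, gene sets, GC adjustment, limma settings and left-out libraries. Python 3.11.15 and scipy 1.17.1 were used elsewhere.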

Additional observations from a re-analysis of the deposited data

Results flagged for a closer look

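Of the 41 genes, 4 had TPM ratios between 40 °C and 37 °C whose counting intervals lay on opposite sides of 1 in the 2 lines. The share of all tested genes that did so was not counted. HNRNPC had a ratio of 1.1 in B-CPAP and 0.953 in TPC-1. HNRNPK had 1.2 in B-CPAP and 0.953 in TPC-1, and HNRNPU 1.28 and 0.938. HNRNPL went the other way, at 0.880 in B-CPAP and 1.04 in TPC-1. The difference between the lines was not tested, as each temperature has 1 library per line. Over the scalings tried, the sign in TPC-1 flipped for HNRNPC and HNRNPL and the sign in B-CPAP for HNRNPC, while HNRNPK and HNRNPU kept theirs. Relative to like-GC genes HNRNPC, HNRNPK and HNRNPU lay below 0 in both lines, and HNRNPL lay at -0.09 in B-CPAP and 0.10 in TPC-1.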

How the results depend on the processing

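For temperature, limma called 0 of 14912 genes, and 867 of 10112 at a mean TPM of at least 5, 1350 of 11824 with protein-coding genes only, 49 with libraries centred on the median and 2 with a pseudocount of 5. Among the 41 genes it called 0, but 6 of 39 at a mean TPM of at least 5 and 9 with protein-coding genes only; the other settings, including the fit without the line as replicate block (0 of 41), called 0. For the lines it called 9349 genes and 27 of the 41, but 0 and 0 without a filter, and 17 of the 41 without the temperature block (7469 genes). Leaving out 1 library, fitted without the block, gave 2911 to 5719 genes and 3 to 12 of the 41, where fewer samples leave the same 1 degree of freedom. No pairing by replicate number was possible because each group holds 1 library.

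The median difference of the 41 genes in TPC-1, 0.0779, was -0.0155 (19 higher) with centred libraries and -0.0313 (19 higher) adjusted for GC content, with or without the other genes, but 0.132 (37 higher) without mitochondrially encoded genes and 0.0926 (35 higher) with quantile normalization. In B-CPAP the median of 0.29 was 0.10 with centred libraries and 0.0243 adjusted for GC content, but 0.341 without mitochondrially encoded genes and 0.343 with quantile normalization. For all tested genes the median was 0.03 (TPC-1) and 0.09 (B-CPAP) as deposited, and -0.07 and -0.10 with centred libraries. It was 0.07 and 0.12 without mitochondrially encoded genes, -0.01 and -0.0069 with quantile normalization, and -0.0092 and -0.0077 adjusted for GC content. The count 1.5-fold higher in TPC-1, 2, was 0 with a pseudocount of 5 and 1 at a mean TPM of at least 5, with centred libraries, with quantile normalization and adjusted for GC content. In B-CPAP the count of 9 was 5 with a pseudocount of 5, 1 with centred libraries, 0 adjusted for GC content and 11 without mitochondrially encoded genes. Of the values of single genes between temperatures, 597 moved by less than the half-width of that gene's own counting interval and 219 by more. Relative to like-GC genes 221 moved by less and 25 by more, these 25 with matching on expression and none with 200 or 1000 neighbours. That matching put the median of the 41 genes at 0.0337 against 0.0016 in TPC-1 and 0.0832 against 0.0546 in B-CPAP. Under 4 scalings 19 of the 41 genes in TPC-1 and 9 in B-CPAP changed sign, and the share of all tested genes that did so was not counted. Depth limits CLK4 and HNRNPA1L2 most, and no setting replaces a second library.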
